A study of Homo sapiens with 6 samples.

Results

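The collagens, thrombospondins and matrix glycoproteins described here are 49 genes, chosen by family: 21 collagen chains, 4 thrombospondins, 4 small leucine-rich proteoglycans, 5 lysyl oxidases, 5 elastic fibre proteins, 5 matricellular proteins and 5 large proteoglycans and nidogens. A probe belonged to a gene when its RefSeq accession mapped to that gene's symbol. The 49 genes had 64 of the 34127 probes on the array, and 57 of these were among the 27624 probes bright enough to test. Messenger RNA was measured on 6 1-colour Agilent arrays in CAL-27, an established line of human tongue squamous carcinoma. Knockdown cells (shXBP-1s, n = 3) held an shRNA that targets XBP-1s and, per the methods, were stably transduced. Control cells (shCtrl, n = 3) held the control shRNA, and the labels name no further treatment in either group. The labels do not say whether replicates were separate cultures or separate transductions, so p-values measure the spread between these samples, which may be technical.

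The targeted gene was checked first. The XBP1 probe gave signals of 2534, 2743 and 2761 on the shCtrl arrays and 695, 617 and 551 on the shXBP-1s arrays, each set without overlap with the other. The log2 fold change was -2.39 (SE 0.04, limma adjusted p = 2.81e-07). The labels were borne out by this single XBP1 probe, which is not known to separate the spliced from the unspliced form. Array brightness differed, with 75th percentiles of 687.4 to 761.3 in shCtrl and 792.0 to 983.4 in shXBP-1s, and 82.1% to 84.8% of spots were well above background. By scan time, shCtrl 2 and 3 formed 1 group of arrays, and shCtrl 1 with all 3 shXBP-1s arrays the other. These scan groups are called slide 1 and slide 2 below, a name inferred from scan time only. Comparisons within a slide rest on shCtrl 1 alone. All values below are log2 signals minus the 75th percentile of the array. A gene was called when its brightest tested probe had an adjusted p below 0.05 and a change of at least 2-fold. A level cannot be compared between probes, and in a bulk culture fewer cells of a type and less RNA per cell cannot be told apart.

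Collagens are triple helices of 3 chains that are hydroxylated, folded and glycosylated in the endoplasmic reticulum before secretion. Fibrillar collagens form tissue fibres, network collagens such as type IV build basement membranes, and type VII and XVII anchor stratified epithelium to the tissue beneath. Thrombospondins, tenascins and the CCN proteins are matricellular, that is, they signal from the matrix more than they carry load, and small leucine-rich proteoglycans bind collagen fibrils and set their spacing. In squamous carcinoma much of this matrix is made by fibroblasts, with a part made by the carcinoma cells themselves. XBP1 is the transcription factor of the IRE1 branch of the unfolded protein response, and its spliced form (XBP-1s) drives genes of the secretory pathway.

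Promoter sequences were taken from RefSeq on GRCh38.p14 as windows from 250 bases before to 50 after the start. Of the 49 genes, 38 had an entry, giving 47 windows, and COL1A1, COL1A2, COL3A1, COL5A2, COL8A1, DCN, LUM, LOXL2, ELN, AGRN and CCN1 had none. The letters searched, on both strands, were ACGTG (core of XBP1 and ATF6 sites), GGAATG (core of TEAD sites), TGANTCA (AP-1), GTCTAGAC (palindrome of SMAD) and CCAAT (a common promoter box). ACGTG was in 21.3% of the 47 windows and in 21.4% of all 35116 promoter windows. GGAATG was in 12.8% against 14.0%, TGANTCA in 2.13% against 7.71%, GTCTAGAC in 0.0% against 0.202%, and CCAAT in 36.2% against 34.6%. A match is a description of letters in a window and not a site in use.

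The 250 bases before the start are shown for THBS1 (plus strand, chr15:39580829-39581078), THBS2 (minus strand, chr6:169253847-169254096) and COL5A1 (plus strand, chr9:134641553-134641802), since these genes rose on the arrays and hold the searched letters before their start. The sequences are written 5′ to 3′ along the gene. Capitals mark GGAATG in THBS1 with CCAAT (read as ATTGG on the other strand), ACGTG (read as CACGT on the other strand) in COL5A1, and both in THBS2, where GGAATG also stands on the opposite strand as CATTCC. FMOD, which fell, is the other called gene with ACGTG in its window, after its start.
THBS1: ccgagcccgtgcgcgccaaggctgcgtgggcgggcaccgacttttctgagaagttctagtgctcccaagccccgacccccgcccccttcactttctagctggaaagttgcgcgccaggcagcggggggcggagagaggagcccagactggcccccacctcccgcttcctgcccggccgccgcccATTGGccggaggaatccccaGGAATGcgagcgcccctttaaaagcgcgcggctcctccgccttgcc
THBS2: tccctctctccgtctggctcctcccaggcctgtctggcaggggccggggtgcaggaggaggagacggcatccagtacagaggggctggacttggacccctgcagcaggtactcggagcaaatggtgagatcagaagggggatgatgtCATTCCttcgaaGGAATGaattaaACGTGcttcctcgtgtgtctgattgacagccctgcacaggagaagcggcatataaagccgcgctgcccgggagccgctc
COL5A1: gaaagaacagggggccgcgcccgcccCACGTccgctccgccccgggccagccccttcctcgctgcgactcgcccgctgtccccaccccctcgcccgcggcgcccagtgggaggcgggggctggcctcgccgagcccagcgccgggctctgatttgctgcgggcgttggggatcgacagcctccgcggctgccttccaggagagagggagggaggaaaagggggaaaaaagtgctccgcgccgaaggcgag

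Type IV collagen chains lie in head-to-head pairs, and the starts of COL4A1 and COL4A2 are 126 bases apart on opposite strands of chromosome 13, those of COL4A6 and COL4A5 379 bases apart on chromosome X. The stretch between the first pair (chr13:110307158-110307283, plus strand) and the part that the windows of the second pair share (chrX:108439588-108439708, plus strand) are shown because both genes of each pair read from them, with CCAAT on either strand in capitals.
COL4A1 and COL4A2: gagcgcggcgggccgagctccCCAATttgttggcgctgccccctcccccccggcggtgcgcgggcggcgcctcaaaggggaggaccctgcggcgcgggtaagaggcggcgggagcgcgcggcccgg
COL4A6 and COL4A5: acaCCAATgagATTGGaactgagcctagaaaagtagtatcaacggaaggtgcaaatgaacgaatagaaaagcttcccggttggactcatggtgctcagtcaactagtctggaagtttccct

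Of the 49 genes, 44 had a probe to test, COL5A3 only through the shXBP-1s arrays. With XBP-1s knockdown 7 were called higher (15.9% of the 44; 2.3% of all 16821 tested genes) and 5 lower (11.4%; 2.88% of all tested genes), together 12, where 5.18% of all tested genes were called. These shares are a description, since the genes were listed with earlier results of these data known. The genes called higher were COL5A1, TNC, THBS1, THBS2, CCN1, LUM and DCN, and those called lower were COL8A1, COL18A1, FMOD, FBLN1 and FBLN5. With normexp background correction, alone or with quantile normalization, 5 were called higher and 2 lower. Over probes, 14 of 57 (24.6%) were called, against 4.9% of all probes. They were 9 higher, where 2.29% of all probes were, and 5 lower, where 2.61% were. The 3 arrays of 1 group did not overlap those of the other in 42 of 57 (73.7%; 24 higher, 18 lower), against 52.4% of all probes. Where the fold limit was dropped and the adjusted p kept below 0.05, 17 genes were higher (18.9% of all tested genes were) and 10 lower (27.5%). The median log2 fold change over the 44 genes was 0.12, beside -0.04 over all tested genes, and single values ran from -1.67 to 1.94. With normexp the median turned to -0.14, with 19 genes above 0 and 25 below in place of 27 and 17. The median over all tested probes was -0.41 there, so the members still lay above it. With quantile normalization after normexp, the median of the 44 genes was 0.09, with 28 above 0 and 16 below. Over all tested probes it was then -0.003.

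**Figure D1:**
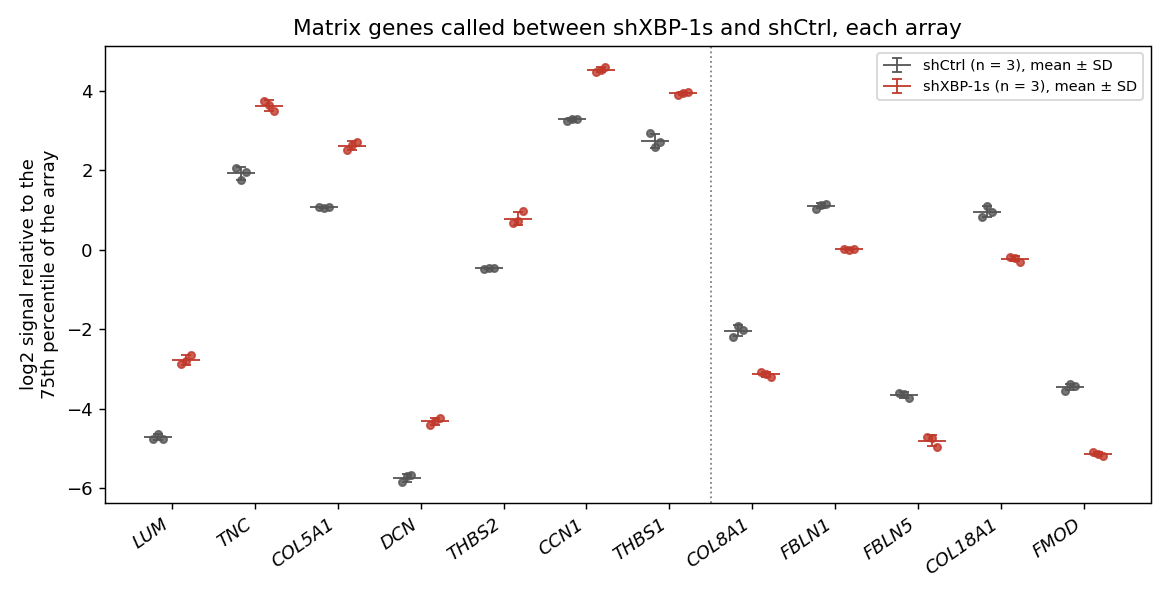
Log2 signal relative to the 75th percentile of the array for the 12 called genes (brightest probe), with 1 point per array and the mean ± SD of 3 shCtrl (grey) and 3 shXBP-1s (red) arrays; genes called higher stand left of the dotted line. The arrays of the groups do not overlap for any of the 12, and heights of different genes cannot be compared. DCN, LUM, FMOD, FBLN1 and FBLN5 were not called with normexp. DCN was at -0.32 there (limma adjusted p = 0.697), beside a median of -0.41 over all tested probes.

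Among the fibrillar collagens, 1 of 6 tested chains was called, where 5.18% of all tested genes were. It was COL5A1, the chain of type V collagen that starts and limits the width of type I fibrils. COL5A1 gave 1.07, 1.05 and 1.09 in shCtrl and 2.51, 2.64 and 2.72 in shXBP-1s. The shCtrl arrays lay close together, and each shXBP-1s array was above them all. The mean rose from 1.07 ± 0.02 to 2.62 ± 0.11 (SD, n = 3 each), a log2 fold change of 1.56 (SE 0.06, 2.94-fold, limma adjusted p = 2.04e-06). A dimmer probe of COL5A1, with signals of 26.0 to 28.1 in shCtrl and 107.5 to 156.6 in shXBP-1s, rose by 1.99 (SE 0.10, limma adjusted p = 4.27e-06). With normexp the dimmer probe gave 0.32 and was not called. The other chains of type V did not follow, with 0.07 (SE 0.19) for COL5A2 and 0.41 (SE 0.29) for COL5A3, neither called. Both were dim, with signals of 15.6 to 32.3 for COL5A2 and 4.4 to 13.9 for COL5A3, and were negative with normexp.

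COL1A1, the major chain of type I collagen, had signals of 102.4 to 111.1 in shCtrl and 70.8 to 100.3 in shXBP-1s. Its log2 fold change was -0.63 (SE 0.11, limma adjusted p = 0.00239), below the 2-fold limit. For COL1A2, its partner chain, the groups overlapped (-0.07, SE 0.09). COL3A1, the chain of type III collagen, was not well above background on any array, and its signal stayed between 1.1 and 1.6. COL27A1 was 0.27 (SE 0.07) by the 75th percentile and -0.08 by normexp. The difference between the changes of 2 chains was tested on the arrays for 15 pairs of related genes, named after their values were seen, with an exact two-sided permutation test that cannot go below 0.1 with 3 arrays against 3. It was 1.49 between COL5A1 and COL5A2 and -0.56 between COL1A1 and COL1A2, each without overlap of the groups and at that smallest exact p of 0.1 (0.115 adjusted over the 15 pairs). The groups did not overlap in 13 of the 15 pairs. Since the pairs were named after their values were seen, a lack of overlap cannot decide whether 2 genes differ, here or in the pairs below.

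Of the 8 tested chains of basement membranes and networks, 2 were called lower and none was called higher, where 2.88% and 2.3% of all tested genes were. COL18A1, whose C-terminal fragment is endostatin, gave 0.82, 1.10 and 0.96 in shCtrl and -0.18, -0.20 and -0.29 in shXBP-1s. Every shXBP-1s array was lower than every shCtrl array. The mean went from 0.96 ± 0.14 to -0.23 ± 0.06 (SD, n = 3 each), a log2 fold change of -1.19 (SE 0.08, 2.28-fold, limma adjusted p = 1.32e-05). COL8A1, a short-chain network collagen of vessel walls and the corneal endothelium, gave -2.19, -1.92 and -2.02 in shCtrl and -3.08, -3.12 and -3.19 in shXBP-1s. The groups did not overlap, and shCtrl 1 was the lowest of its group. The log2 fold change was -1.09 (SE 0.08, 2.13-fold, limma adjusted p = 3.12e-05). It was -0.94 within slide 2 and -0.68 with normexp and quantile normalization, and COL8A1 was called in neither.

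The chains of type IV collagen, the main network of basement membranes, stayed under 2-fold. COL4A6 was the farthest from 0, with signals of 172.8 to 198.0 in shCtrl and 362.6 to 389.8 in shXBP-1s and a log2 fold change of 0.79 (SE 0.07, limma adjusted p = 9.10e-05). COL4A5, its head-to-head neighbour, was at 0.28 (SE 0.05, limma adjusted p = 0.0026), and the 2 changes differed by 0.51 without overlap of the groups. COL4A1 and COL4A2 differed from each other by 0.07 with overlapping groups (exact p = 0.7), COL4A1 at 0.39 (SE 0.11) and COL4A2 at 0.33 (SE 0.07). COL7A1, the chain of anchoring fibrils, was at 0.72 (SE 0.06, limma adjusted p = 6.11e-05). The 2 tested probes of COL6A2 were at -0.16 and -0.47, and COL6A3 was not well above background on any array.

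No chain of the fibril-associated and transmembrane collagens was called among 5 tested, where 5.18% of all tested genes were. COL13A1, a transmembrane collagen of cell adhesion sites, came closest, with signals of 175.6, 205.0 and 193.2 in shCtrl and 129.1, 119.6 and 105.3 in shXBP-1s. Its log2 fold change of -0.97 (SE 0.06, limma adjusted p = 8.84e-06) was just under 2-fold, and the groups did not overlap. COL17A1, the hemidesmosomal collagen of basal keratinocytes, had signals of 6765 to 7244 in shCtrl and 12124 to 14645 in shXBP-1s. The log2 fold change was 0.70 (SE 0.07, limma adjusted p = 0.000142). COL12A1 (0.14), COL9A2 (0.06) and COL16A1 (-0.03) lay between by their brightest probes. A dimmer COL12A1 probe was at 0.63 (SE 0.09, limma adjusted p = 0.000688) without overlap of the groups, and at -0.34 with normexp. The second probe of COL16A1 had the opposite sign (0.41), and with normexp the signs of both were exchanged (0.11 for the brighter, -0.11 for the other).

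**Figure D2:**
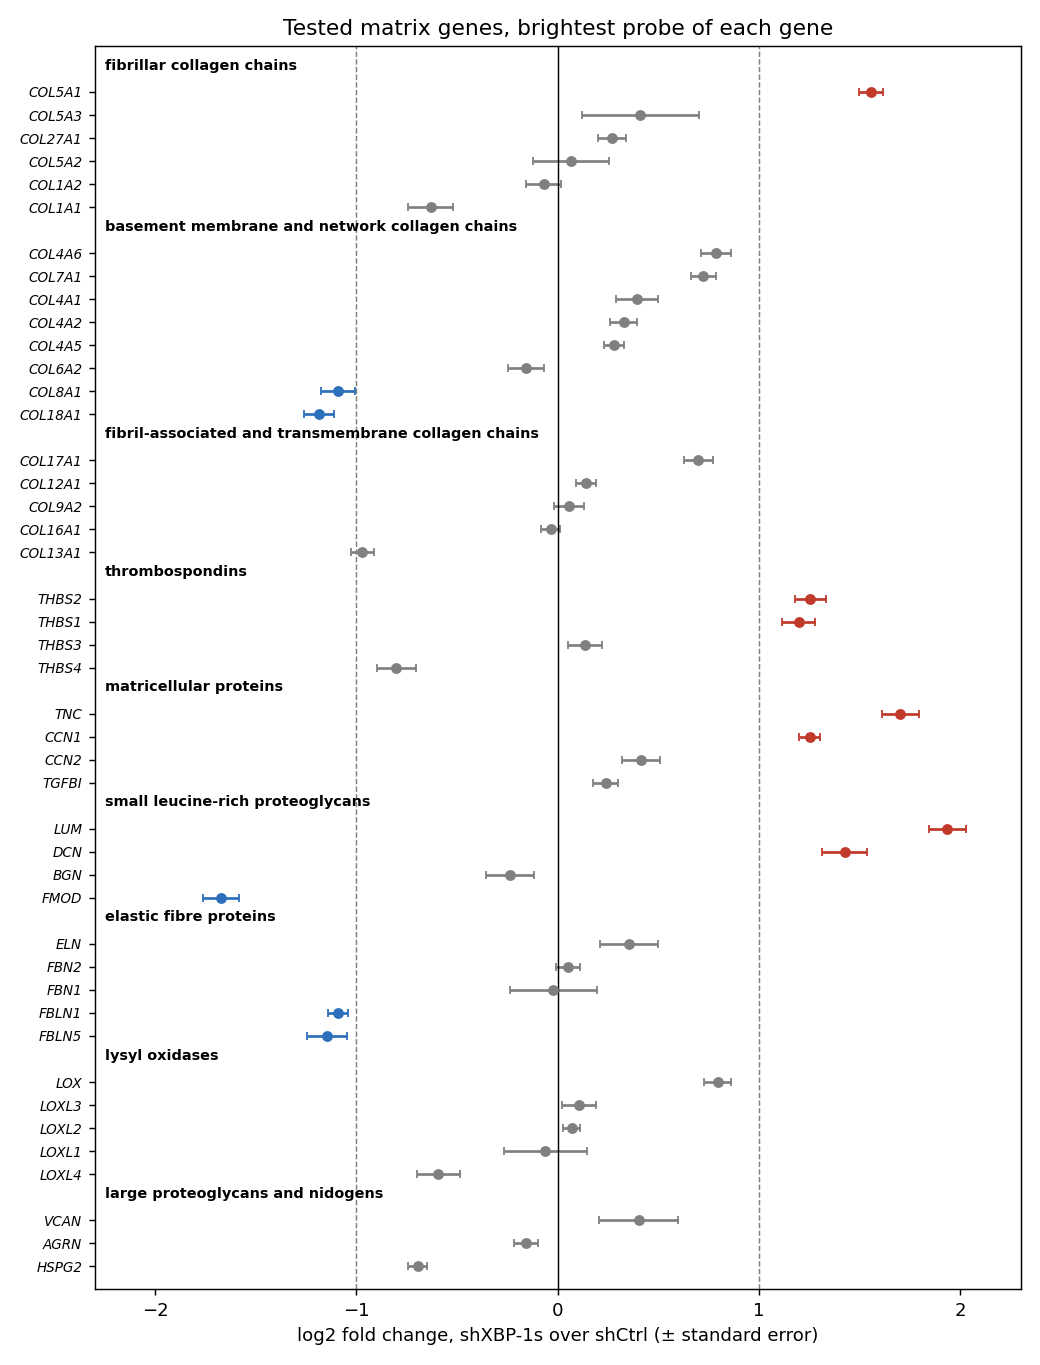
Log2 fold change (shXBP-1s over shCtrl, 75th percentile scaling) with its standard error for the brightest probe of each of the 44 tested genes, grouped by role; red and blue mark genes called higher and lower, grey the genes not called, and dashed lines 2-fold. The 7 genes called higher and 5 called lower stand in 6 of the 9 roles, and under normexp DCN and 8 of the uncalled genes with values above 0 here were below 0. The median over all tested probes was -0.41 under normexp.

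Both THBS1 and THBS2 rose, the trimeric thrombospondins that bind CD36 and CD47 and restrain vessel growth. THBS1 gave 2.93, 2.59 and 2.71 in shCtrl and 3.90, 3.96 and 3.96 in shXBP-1s. The shXBP-1s arrays were close together and all above shCtrl. The mean rose from 2.74 ± 0.17 to 3.94 ± 0.04 (SD, n = 3 each), a log2 fold change of 1.20 (SE 0.08, 2.29-fold, limma adjusted p = 1.91e-05). It was 1.01 within slide 2. A dimmer THBS1 probe was at 0.96 (SE 0.08, limma adjusted p = 5.22e-05), just short of 2-fold, and passed it without shCtrl 3 (1.03) or with the slide as a block (1.05).

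THBS2 gave -0.49, -0.45 and -0.47 in shCtrl and 0.68, 0.72 and 0.97 in shXBP-1s. The groups lay more than 1 log2 unit apart. The mean went from -0.47 ± 0.02 to 0.79 ± 0.16 (SD, n = 3 each), a log2 fold change of 1.25 (SE 0.08, 2.39-fold, limma adjusted p = 1.07e-05). A second THBS2 probe, with signals of 44.9 to 48.8 in shCtrl and 211.6 to 292.2 in shXBP-1s, rose by 2.09 (SE 0.10, limma adjusted p = 3.67e-06), and by 0.70 with normexp, where it was not called. The changes of THBS1 and THBS2 differed by 0.06 with overlapping groups (exact p = 0.8). The pentameric THBS4 lay on the other side of 0, at -0.80 (SE 0.10, limma adjusted p = 0.000367), with signals of 41.9 to 48.9 in shCtrl and 29.9 to 34.0 in shXBP-1s. THBS2 and THBS4, a pair named after its values were seen, differed in their changes by 2.06 without overlap of the groups (exact p = 0.1, the smallest possible). For THBS3, also pentameric, the groups overlapped (0.14, SE 0.08; -0.02 with normexp).

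Of the matricellular proteins, 2 of 4 tested genes were called higher, where 2.3% of all tested genes were. With the adjusted p alone (below 0.05) all 4 were higher, where 18.9% of all tested genes were. TNC encodes tenascin C, a hexameric glycoprotein of wound beds and tumour stroma, and gave 2.06, 1.76 and 1.96 in shCtrl and 3.76, 3.64 and 3.49 in shXBP-1s. All shXBP-1s arrays lay above all shCtrl arrays. The mean rose from 1.93 ± 0.15 to 3.63 ± 0.13 (SD, n = 3 each), a log2 fold change of 1.70 (SE 0.09, 3.26-fold, limma adjusted p = 6.66e-06).

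CCN1 (CYR61), a secreted integrin ligand, gave 3.25, 3.31 and 3.29 in shCtrl and 4.47, 4.52 and 4.61 in shXBP-1s. The spread within each group was small beside the gap between them. The mean rose from 3.28 ± 0.03 to 4.54 ± 0.07 (SD, n = 3 each), a log2 fold change of 1.25 (SE 0.05, 2.38-fold, limma adjusted p = 2.62e-06). CCN2 (CTGF), its close relative, was at 0.41 (SE 0.10, limma adjusted p = 0.00952), and the changes of the 2 genes differed by 0.84 without overlap (exact p = 0.1). TGFBI, an adhesion protein induced by TGF-beta, was at 0.24 (SE 0.06, limma adjusted p = 0.0175). POSTN, periostin, was not well above background on any array.

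The small leucine-rich proteoglycans split, with LUM and DCN called higher and FMOD lower, although DCN lay below 0 with normexp. All 3 probes were dim, and all 3 were among the calls lost with normexp. LUM, lumican, gave -4.76, -4.63 and -4.76 in shCtrl and -2.88, -2.81 and -2.64 in shXBP-1s, signals of 25.4 to 30.8 against 127.3 to 133.2. Every shXBP-1s array was above every shCtrl array. The mean rose from -4.71 ± 0.08 to -2.78 ± 0.13 (SD, n = 3 each), a log2 fold change of 1.94 (SE 0.09, 3.83-fold, limma adjusted p = 4.25e-06). It was 0.34 with normexp and 0.91 with normexp and quantile normalization.

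DCN, decorin, gave -5.84, -5.69 and -5.67 in shCtrl and -4.40, -4.31 and -4.22 in shXBP-1s, signals of 12.0 to 14.8 against 42.5 to 46.6. The groups did not overlap. The log2 fold change was 1.43 (SE 0.11, 2.69-fold, limma adjusted p = 3.84e-05), against -0.32 with normexp, which moved the median of all tested probes by -0.39, and 0.43 with quantile normalization after it. A second DCN probe was well above background on 1 shXBP-1s array and no shCtrl array, and was not tested.

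FMOD, fibromodulin, gave -3.55, -3.38 and -3.43 in shCtrl and -5.07, -5.12 and -5.18 in shXBP-1s, signals of 58.8 to 73.1 against 21.9 to 29.2. Each shXBP-1s array was lower than each shCtrl array. The mean went from -3.45 ± 0.09 to -5.12 ± 0.05 (SD, n = 3 each), a log2 fold change of -1.67 (SE 0.09, 3.19-fold, limma adjusted p = 6.59e-06). It was -1.29 with normexp and -0.64 with quantile normalization after it. The changes of LUM and FMOD differed by 3.61 without overlap (exact p = 0.1), and BGN, biglycan, was at -0.24 (SE 0.12), not called. LUM and DCN are neighbours on chromosome 12, and KERA, the gene on the other side of LUM, was well above background on 1 of 3 shCtrl arrays, too dim to tell whether it changed.

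Of the 5 elastic fibre proteins, the fibulins FBLN1 and FBLN5 fell, and elastin and the fibrillins were not called. FBLN1, a glycoprotein of elastic fibres and basement membranes, gave 1.04, 1.14 and 1.16 in shCtrl and 0.03, 0.00 and 0.03 in shXBP-1s. The shXBP-1s arrays were nearly equal and all below shCtrl. The mean went from 1.11 ± 0.06 to 0.02 ± 0.02 (SD, n = 3 each), a log2 fold change of -1.09 (SE 0.05, 2.13-fold, limma adjusted p = 3.09e-06), and -0.99 with normexp, just short of 2-fold. By the mean of its probes FBLN1 was at -0.67 and not called. The other FBLN1 probes were at -0.68 (limma adjusted p = 8.59e-05) and -0.25 (limma adjusted p = 0.187).

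FBLN5, needed to assemble elastic fibres, gave -3.61, -3.62 and -3.73 in shCtrl and -4.72, -4.73 and -4.95 in shXBP-1s. The groups were about 1 log2 unit apart. Its log2 fold change was -1.15 (SE 0.10, 2.21-fold, limma adjusted p = 6.44e-05). The probe was dim, with signals of 25.6 to 61.7, and gave -1.10 with normexp and -0.43 with quantile normalization after it, called in neither. ELN was at 0.36 (SE 0.14) on its brighter probe and -0.01 on the other, with overlapping groups on both. FBN1 (-0.02) and FBN2 (0.05) overlapped as well.

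No lysyl oxidase was called among 5 tested, where 5.18% of all tested genes were. LOX, which cross-links collagen and elastin, had signals of 443.5 to 475.1 in shCtrl and 882.5 to 1062.0 in shXBP-1s, and the log2 fold change was 0.79 (SE 0.06, limma adjusted p = 4.45e-05). LOXL4 was at -0.59 (SE 0.10, limma adjusted p = 0.00256), and the changes of LOX and LOXL4 differed by 1.39 without overlap (exact p = 0.1). LOXL2, the brightest of these probes, was at 0.07 (SE 0.04), and LOXL1 and LOXL3 had overlapping groups.

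Of the large proteoglycans and nidogens, 3 were tested and none was called, where 5.18% of all tested genes were. HSPG2, perlecan of basement membranes, was lower on all 4 of its probes, from -0.39 to -0.70, with adjusted p-values of limma from 1.8e-05 to 0.0117. Its brightest probe had signals of 12274, 13678 and 14356 in shCtrl and 10935, 9969 and 9161 in shXBP-1s. AGRN, agrin, was at -0.16 (SE 0.06), and VCAN, versican, at 0.40 (SE 0.20) with overlapping groups and -0.08 within slide 2. NID1 and NID2, which link laminin to type IV collagen, were not well above background on any array. NID2 signals were 1.4 to 1.7 in shCtrl and 4.0 to 6.5 in shXBP-1s, and it was called higher only with no filter on dim probes.

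**Figure D3:**
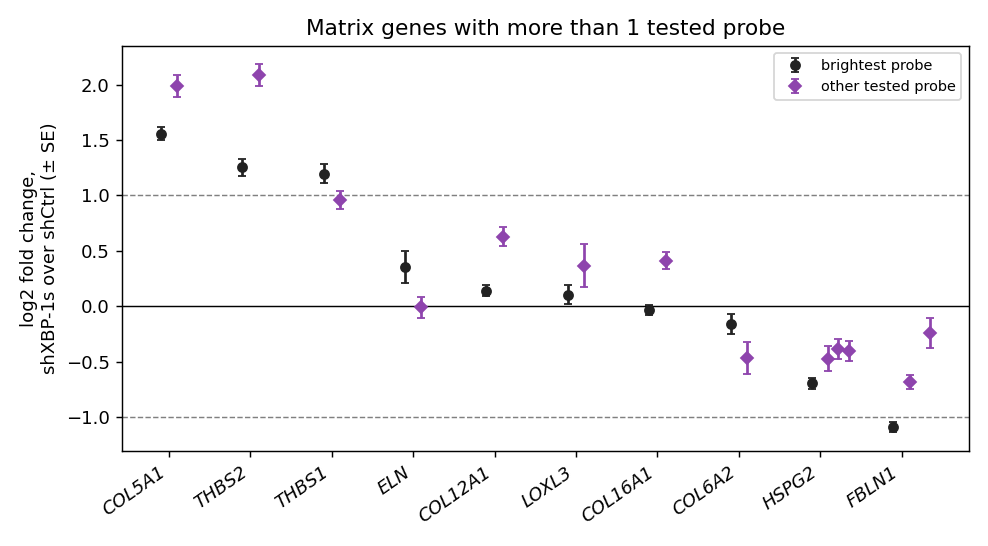
Log2 fold change (shXBP-1s over shCtrl, 75th percentile scaling) with its standard error for each tested probe of the 10 genes with more than 1, the brightest as circles and the others as diamonds; dashed lines mark 2-fold. Both probes of COL5A1 and THBS2 lie above 2-fold, while ELN and COL16A1 have probes on opposite sides of 0; with normexp the dimmer probes of COL5A1 and THBS2 were not called.

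Of the 10 genes with more than 1 tested probe, 2 (20%) had probes of opposite sign, ELN and COL16A1, against 39.3% of 4053 such genes on the array. Within slide 2, against shCtrl 1 alone, the 12 called genes kept their sign, and 11 of 12 were called with the slide as a block.

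Of 31 enzymes and chaperones that make collagen, 30 were tested and 1 was called, where 5.18% of all tested genes were. It was HSPA5 (BiP, the main chaperone of the endoplasmic reticulum), which fell by 1.05 (SE 0.04, limma adjusted p = 2.67e-06). With the adjusted p alone (below 0.05), 10 of the 30 were higher, where 18.9% of all tested genes were. Lower were 8, where 27.5% of all tested genes were, and the median was -0.08. Of 23 collagen chains outside the 49 genes, 16 were tested. Of these, 1 was called higher and 1 lower, where 2.3% and 2.88% of all tested genes were. COL6A1, the partner of COL6A2 in type VI collagen and its neighbour on chromosome 21, fell by 1.17 (SE 0.04, limma adjusted p = 1.67e-06), and COL28A1 rose by 1.16 (SE 0.08, limma adjusted p = 2.10e-05). The changes of COL6A1 and COL6A2 differed by -1.01 without overlap (exact p = 0.1).

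Of 69 other matrix glycoproteins and proteoglycans, 57 were tested, and the median was 0.00 at 2 decimals. Called higher were 3 and lower 2, where 2.3% and 2.88% of all tested genes were. SPOCK1 (1.49), SRPX2 (1.18) and LTBP1 (1.13, and 1.37 on its dimmer probe), which stores latent TGF-beta in the matrix, were called higher. HMCN1 (-1.31) was called lower. FREM2, a protein of epithelial basement membranes, was well above background on all shCtrl arrays and on no shXBP-1s array. It was at least 2.39-fold lower, taking for each shXBP-1s array the lowest signal well above background. FREM2 was tested only through the group in which it is higher, and its limma adjusted p of 0.000806 rests on shXBP-1s signals not well above background. It was at -0.21 with normexp and quantile normalization, so its size is uncertain. SMOC2, the neighbour of THBS2 on chromosome 6, was at -0.52 (limma adjusted p = 0.00154). Of 13 receptors of collagens and thrombospondins other than integrins, all were tested and 1 was called, where 5.18% of all tested genes were. MRC2, which takes up collagen for breakdown, fell by 1.11 (SE 0.06, limma adjusted p = 7.22e-06). With the slide as a block MRC2 was at -0.99 and not called. With normexp, HSPA5 (-0.94), MRC2 (-0.99), SRPX2 (1.00 at 2 decimals), SPOCK1 (0.40), COL28A1 (0.42), HMCN1 (-1.17), FREM2 (-1.13) and LTBP1 (0.52, and -0.24 on its dimmer probe) were not called.

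Markers of the labelled cell type and of other matrix-making cells were read beside these results. All 10 markers of stratified squamous epithelium were well above background on every array. Their summed signal, as a multiple of the 75th percentile of the array, was 122.2 to 129.1 in shCtrl and 158.4 to 184.9 in shXBP-1s, and the basal keratins KRT5 (1.43), KRT14 (1.58) and KRT17 (1.53) were called higher. Of 9 fibroblast markers with a probe, 3 were well above background on every array (PDGFRB, FAP and MFAP5). PDGFRA and TCF21 were so on 4 arrays each, and THY1, PRRX1, LRRC15 and MEOX2 on none. The fibroblast sum was 0.811 to 1.04 in shCtrl and 0.496 to 0.592 in shXBP-1s, with PDGFRB called lower (-1.28). FAP (1.76) and PDGFRA (1.03) were called higher from dim probes, with signals of 10.2 to 50.1 and 3.1 to 14.0, and were below 0 with normexp (-0.38 and -0.84). The median over all tested probes was -0.41 there. With quantile normalization after normexp, FAP was at 0.42 and PDGFRA at 0.08, neither called. PDGFRA was well above background on 1 of 3 shCtrl arrays, so it was tested only through the group in which it is higher, and its size is uncertain.

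The other lists were checked in the same way. Of the endothelial markers 5 of 6 were well above background on every array, with TEK on none, and their sum was 0.229 to 0.296 in shCtrl and 0.271 to 0.291 in shXBP-1s. The 5 leukocyte markers with a probe were above background on every array, with a sum of 4.96 to 6.83 in shCtrl and 4.32 to 4.43 in shXBP-1s. CD14, the largest part of that sum, was at -0.84 (SE 0.13, limma adjusted p = 0.0011) and not called. CSF1R (1.04) was called higher, though not with normexp (0.88) or without shXBP-1s 3 (0.97). Of the 6 smooth muscle and pericyte markers 4 were above background on every array and MYH11 on none. Their sum was 0.642 to 0.668 in shCtrl and 0.951 to 1.06 in shXBP-1s, with MCAM (1.32) called higher, though not with normexp (1.00 at 2 decimals). The other tested markers of that list were at -0.88 (ACTA2, SE 0.11, limma adjusted p = 0.000465), -0.38 (CSPG4) and -0.08 (DES). The squamous sum, and the smooth muscle and pericyte sum through MCAM, were higher in the shXBP-1s arrays. The fibroblast sum, with PDGFRB as its largest part, and the leukocyte sum, with CD14 as its largest part, were lower there. FAP, PDGFRA and CSF1R of the same lists were called higher. These are the arrays in which COL5A1, TNC, THBS1, THBS2, CCN1, LUM and DCN were higher. The part of the sums in these results was not tested.

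**Figure D4:**
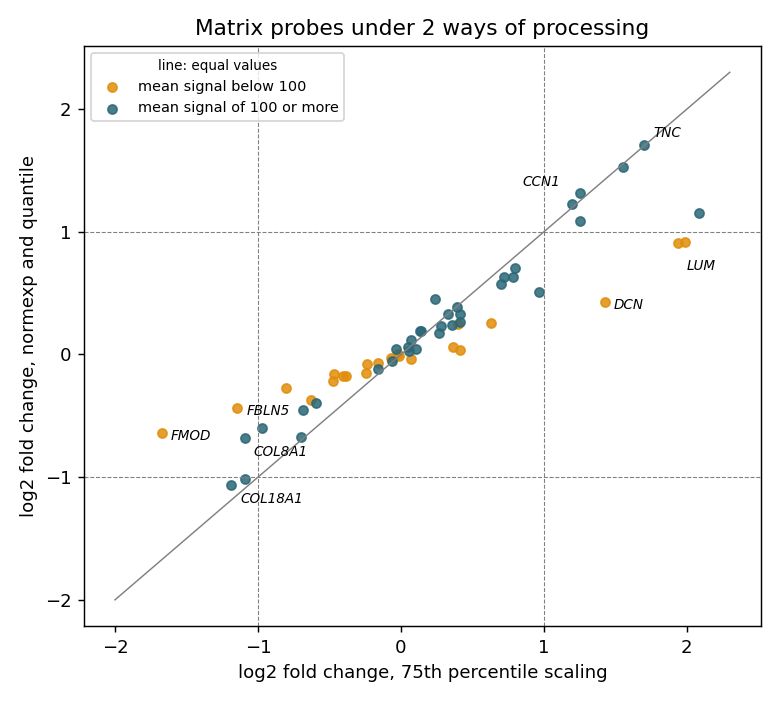
Log2 fold change (shXBP-1s over shCtrl) of the 57 tested probes by 75th percentile scaling (x axis) and by normexp with quantile normalization (y axis), with 22 probes of mean signal below 100 in orange, 35 brighter ones in teal, and the line of equal values. Probes below 100, among them LUM, DCN, FMOD and FBLN5, lie nearer 0 on the y axis than on the x axis, while TNC, CCN1 and COL18A1 lie near the line; with normexp alone DCN was below 0.

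The dependence on signal was read from the same comparison. LUM, DCN, FMOD and FBLN5, all with signals under 100 in at least 1 group, went from 1.94, 1.43, -1.67 and -1.15 to 0.91, 0.43, -0.64 and -0.43 when normexp and quantile normalization were used. TNC, CCN1, THBS1, COL5A1 (brightest probe), THBS2 (brightest probe), COL18A1 and FBLN1 were called under both, and COL8A1 (-0.68) was not.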

How the data were processed

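Gene expression was measured on 6 Agilent 1-colour arrays, 3 shCtrl and 3 shXBP-1s, grouped by the sample labels. Per the file headers, the deposited intensity of a spot is the background-subtracted signal of Agilent Feature Extraction 11.0.1.1. The authors also deposited a table of log2 values, whose normalization is not given in the sources used here (the submitters' processing notes name RMA), and it served as an alternative. The log2 intensity minus the array's 75th percentile was taken, outlier-flagged spots were left out and spots of a probe averaged. Testing was limited to probes well above background (over 50% of their spots) on every array of shCtrl, of shXBP-1s or of both, with limma 3.58.1 (lmFit, eBayes with trend) in R 4.3.3, two-sided, with Benjamini-Hochberg adjustment over all 27624 tested probes; 19 probes had no unflagged spot on some array. Symbols came from RefSeq accessions matched to GRCh38.p14 (25771 of 34127 probes); a gene's brightest tested probe represents it. Array annotation names hg19, so no probe coordinates are given; promoter coordinates are those of RefSeq on GRCh38.p14. The genes, role, pathway and marker lists were chosen with earlier results of these data known. Named genes are all 49, with array values for those with a called probe and for THBS2 and DCN, up to 3 uncalled genes per role by size of change, then brightness, and up to 5 called genes per list by smallest p; the further uncalled genes and the 15 pairs were named after their values were seen. Replicate numbers were not used to pair the samples in the main fit. On simulated data for this comparison (27624 probes, 200 changed by a log2 fold change of 1.5 to 3), limma recovered 195 with 1 false call. The simulation did not cover changes below 1.5, the size of most called genes. The number of arrays limits the precision. Alternatives were other background corrections, normalizations, filters, variance models, thresholds, representatives of a gene, the methods' t-test, replicate and slide blocks, and leaving out each array.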

Additional observations from a re-analysis of the deposited data

How the results depend on the processing

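Of the 12 called genes, 12 were also called, with the same sign, under quantile normalization, the deposited log2 values, either other filter on dim probes, an adjusted p below 0.01, limma fitted with no trend, the t-test of the methods, and in each fit on 5 arrays. By the mean of the probes of a gene 11 were, without FBLN1 (-0.67), and with the slide as a block 11, without COL8A1 (-0.94), while the dimmer THBS1 probe passed (1.05). Normexp alone and with quantile normalization each left 7, the first without LUM, DCN, FMOD, FBLN1 and FBLN5, the second without LUM, DCN, FMOD, FBLN5 and COL8A1. The calls fell to 473 and 363 probes over all genes and to 2 lower genes among the 49 in both, from 1354 and 5. The median of the 44 tested genes was -0.14 with normexp, which moved the median of all tested probes by -0.39, and 0.0898 with normexp and quantile normalization. DCN (-0.32), FAP (-0.38), PDGFRA (-0.84) and the dimmer LTBP1 probe (-0.24) turned below 0 with normexp; the cause was not tested. PDGFRA was also lost on leaving out any array but shCtrl 1.

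Without a minimum fold 11516 probes passed over all genes, 17 of the 49 genes higher and 10 lower. The median was 0.15 on the deposited values, 0.18 by the mean of a gene's probes and 0.25 by the probe with the smallest p, and 0.11 to 0.17 with each array left out in turn. The methods' t-test with a 2-fold limit gave 1291 probes unadjusted and 1214 after Benjamini-Hochberg adjustment. With the replicate block 1381 probes were called and all 12 genes kept their call. The deviations of same-numbered arrays correlated at -0.02, 0.12 and -0.12, which shows no pairing by number but cannot exclude one. XBP1 stayed between -2.11 and -2.40. Normexp used median spot signals, offset 50. Signals under 100 limit LUM, DCN, FMOD and FBLN5, whose size depends on the background correction.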
